A study of Homo sapiens with 24 samples.

Results

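The genes followed here are 9 targets of the transcription factor NRF2 in HepG2 cells: the thioredoxin system genes TXNRD1, TXN, PRDX1 and SRXN1, the quinone and carbonyl reductase genes NQO1, AKR1C1 and AKR1B10, the heme oxygenase gene HMOX1 and the stress gene OSGIN1. They were chosen by name from the 18915 rows of the gene count table. The rule reads no measured value, but it was set with earlier results of these data known. Of the 9 genes, 8 were among the 12685 with enough counts to be tested. HepG2 is a human hepatoma cell line. The cells received fresh medium with vehicle (DMSO), 50 nM ISRIB, 20 uM nelfinavir, 50 nM bortezomib, bortezomib with nelfinavir or bortezomib with ISRIB at the same concentrations, and RNA was taken after 10 h. Each of the 6 groups had 4 libraries from biological replicates, 24 in all, so every value describes a single line at a single dose and time. Bortezomib inhibits the proteasome, nelfinavir is an HIV protease inhibitor that activates the ATF4 stress pathway, and ISRIB blunts the effect of eIF2alpha phosphorylation on that pathway. The study asked how raising or lowering ATF4 activity alters the response to bortezomib.

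NRF2, encoded by NFE2L2, is held low in unstressed cells because KEAP1 presents it to a CUL3 ubiquitin ligase and the proteasome degrades it. When electrophiles or oxidants modify KEAP1, or when degradation stops, NRF2 accumulates, pairs with a small MAF protein and binds antioxidant response elements near genes for thioredoxin and glutathione metabolism, NADPH supply, quinone reduction and heme breakdown. BACH1 competes for the same elements and is a strong repressor of HMOX1. In liver cells these genes are known for the detoxification of reactive compounds, and AKR1B10 in particular is often raised in hepatocellular carcinoma.

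Levels are given as CPM, counts expressed over a common library total after scaling by the trimmed mean of M-values (TMM), which adjusts for libraries where a few genes take a large share of the reads. The assay reads only the 3′ end of each transcript, so CPM does not grow with transcript length. Comparison of levels between genes is still limited by transcript ends that share sequence or position with other genes, described below. Library totals ran from 5154533 to 6943164 counts. Mitochondrially encoded genes took 18.0 to 23.2% of the counts without bortezomib and 24.9 to 40.2% with it, and the TMM factors were 1.16 to 1.24 and 0.786 to 0.869. Scaling by totals alone moved the median log2 fold change of all genes for bortezomib against DMSO from 0.00 to -0.50, so every change is relative to the bulk of the genes. All 9 hepatoma markers examined had counts in every group, with a summed level of 14300 to 15500 CPM in DMSO libraries, 10100 to 10600 with bortezomib and 6700 to 8170 with bortezomib and nelfinavir. Of 6 markers of leukocytes, fibroblasts and endothelium only CD68 and COL1A1 had rows, with at most 5.21 CPM together. In a bulk sample, fewer cells of a type and less RNA per cell cannot be told apart.

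Before any contrast, 5 libraries have to be named that lay apart from the others of their group. On the leading axis of variation within groups, computed over 6334 genes with the NRF2 targets left out and holding 34.3% of that variation, bortezomib+ISRIB replicate 3 scored 20.89, bortezomib+nelfinavir replicates 3 and 4 scored 17.18 and 12.19, nelfinavir replicate 3 scored 8.17 and ISRIB replicate 3 scored 6.49. The cutoff was a score of 5, and the next library, bortezomib replicate 2, scored 3.3. The scores are relative to group means, so in bortezomib+nelfinavir the axis shows a split of 2 libraries against 2 and does not say which pair is the usual one. Of the 5, 4 are labelled replicate 3 of their group. In the ISRIB group the replicate numbers do not follow the library numbers in the labels, and its replicate 3 has the highest library number. The 5 libraries carry the same treatment labels as the rest of their group and were kept, and each comparison is also given without them. The origin of the split was not tested.

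TXNRD1, OSGIN1 and AKR1C1 had the largest changes in what follows, and their promoters are shown for that reason. The sequences are the 250 bases before a transcription start in RefSeq on build GRCh38.p14, written in the direction of the gene, and 6 of the 9 genes had an entry there (TXNRD1, OSGIN1, AKR1C1, NQO1, TXN and SRXN1, with 2 starts for TXNRD1), while HMOX1, PRDX1 and AKR1B10 did not. Capitals mark matches on either strand to the core of the antioxidant response element, TGACNNNGC, or to the AP-1 core, TGACTCA, which overlaps the first when GC follows it. TXNRD1 start 1 lies at chr12:104215529-104215778 (+), TXNRD1 start 2 at chr12:104286782-104287031 (+), OSGIN1 at chr16:83952990-83953239 (+), AKR1C1 at chr10:4963165-4963414 (+), and AKR1C2, the closest relative of AKR1C1, at chr10:5003858-5004107 (-).
TXNRD1 start 1: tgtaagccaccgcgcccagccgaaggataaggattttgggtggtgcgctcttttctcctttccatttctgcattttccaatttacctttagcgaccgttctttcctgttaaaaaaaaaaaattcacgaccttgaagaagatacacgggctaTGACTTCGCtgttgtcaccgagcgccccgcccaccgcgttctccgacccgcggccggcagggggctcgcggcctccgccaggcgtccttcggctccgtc
TXNRD1 start 2: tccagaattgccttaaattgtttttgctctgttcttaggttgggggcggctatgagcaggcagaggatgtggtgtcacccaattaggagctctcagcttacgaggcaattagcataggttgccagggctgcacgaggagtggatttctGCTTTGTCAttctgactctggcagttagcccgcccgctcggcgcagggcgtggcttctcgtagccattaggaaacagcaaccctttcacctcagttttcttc
OSGIN1: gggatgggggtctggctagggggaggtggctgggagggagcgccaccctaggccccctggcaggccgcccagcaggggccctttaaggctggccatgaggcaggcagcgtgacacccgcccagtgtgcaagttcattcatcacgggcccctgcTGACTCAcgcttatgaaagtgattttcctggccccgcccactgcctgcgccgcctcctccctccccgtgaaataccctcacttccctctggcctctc
AKR1C1: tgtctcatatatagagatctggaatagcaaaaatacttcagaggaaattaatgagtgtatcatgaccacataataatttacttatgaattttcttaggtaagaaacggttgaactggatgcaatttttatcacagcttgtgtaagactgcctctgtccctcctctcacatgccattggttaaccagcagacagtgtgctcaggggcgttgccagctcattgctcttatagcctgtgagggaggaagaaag
AKR1C2: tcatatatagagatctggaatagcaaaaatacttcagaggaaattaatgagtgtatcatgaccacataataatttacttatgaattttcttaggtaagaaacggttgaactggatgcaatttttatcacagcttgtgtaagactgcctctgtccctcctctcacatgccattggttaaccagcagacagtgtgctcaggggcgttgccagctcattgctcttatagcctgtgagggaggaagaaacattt

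Each TXNRD1 start had 1 match to the antioxidant response element core, beginning 99 bases before start 1 on the gene's strand and 102 bases before start 2 on the opposite strand. Both matches were preceded by A, the longer form of the core. OSGIN1 had no such match but held the AP-1 core 97 bases before its start. The promoters of AKR1C1, NQO1, TXN and SRXN1 held neither motif, which says only that these letters are not in this window. Over all 35116 RefSeq promoters of the same length, 10.9% held the core, 1.89% the core preceded by A and 4.20% the AP-1 core. With a shift of 4 bases, the AKR1C1 and AKR1C2 promoters were identical at 245 of 246 bases.

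In the count table's build, GRCh37, TXNRD1 (ENSG00000198431) spans chr12:104609557-104744085, OSGIN1 (ENSG00000140961) chr16:83964916-83999937, AKR1C1 (ENSG00000187134) chr10:5005445-5025475, AKR1B10 (ENSG00000198074) chr7:134212319-134226164 and HMOX1 (ENSG00000100292) chr22:35776354-35790207, all on the plus strand. NQO1 (ENSG00000181019) spans chr16:69740899-69760571, TXN (ENSG00000136810) chr9:113006090-113018787, PRDX1 (ENSG00000117450) chr1:45976586-46008404 and SRXN1 (ENSG00000271303) chr20:627259-633844, on the minus strand. Reads fall in the last exon, and 5 of the 9 genes (AKR1C1, PRDX1, TXN, NQO1 and SRXN1) share such sequence or position with another gene. An AKR1C1 transcript end matched AKR1C2 over 500 bases at 99.0% identity, so reads of these 2 genes could be exchanged or dropped. The last exon of PRDX1 lay entirely within MMACHC on the opposite strand, and 149 bases of TXN matched the pseudogene TXNP6 at 97.3%. Of the last exon of NQO1, 575 of 1881 bases lay in a noncoding gene on the opposite strand, ENSG00000261602, which has no row in the count table. Whether strand was used in counting is not given in the sources used here.

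SRXN1 encodes sulfiredoxin, which repairs overoxidized peroxiredoxins and is a familiar NRF2 target. It had 3 counts in all 24 libraries, 2 in bortezomib+nelfinavir replicate 2 and 1 in nelfinavir replicate 1, and was therefore not tested. The other 22 libraries were at 0, which allows a level of up to 0.349 to 0.741 CPM (3 counts per library, counting error only). Of its last exon, 2292 of 2303 bases lay in ENSG00000270299, a protein-coding model on the same strand that has no row in the count table. The part of this overlap in the low count was not tested.

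The levels of the other 8 genes across groups fell into different patterns, shown by library in the plot of levels. The group means of AKR1C1 ran from 137 CPM in DMSO to 1195 CPM with bortezomib and ISRIB. OSGIN1 was the least abundant, at 11.2 to 54.6 CPM. NQO1 was at 621 to 663 CPM in 5 of the groups and at 897 CPM with nelfinavir. PRDX1 was the most abundant in DMSO, with a mean of 717 CPM, and varied from 701 to 947 CPM between groups.

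**Figure D1:**
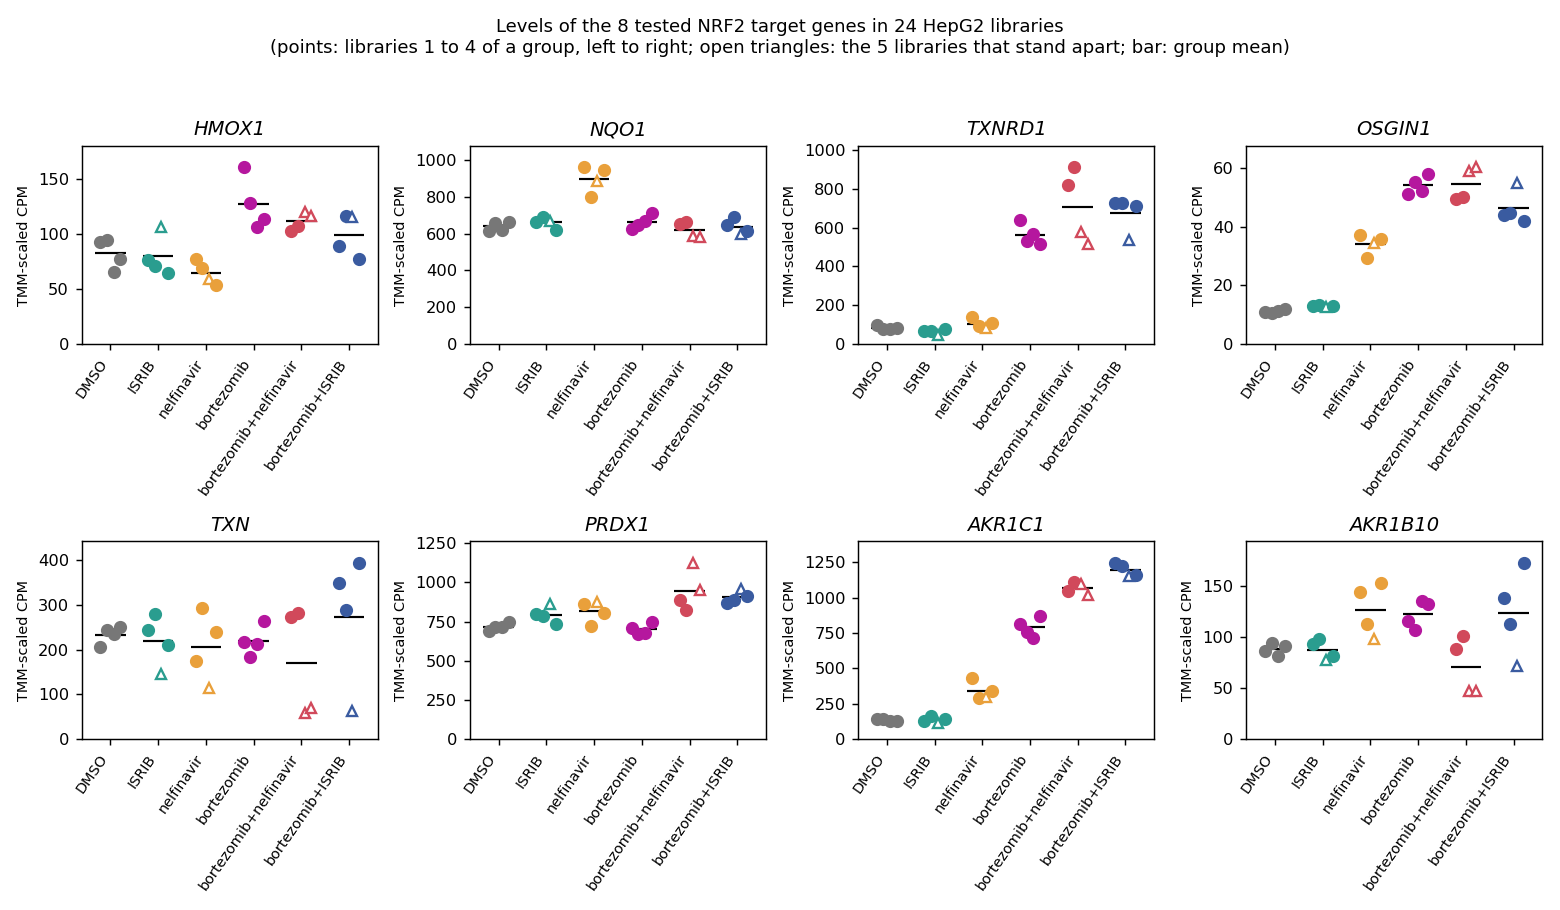
Level of each tested NRF2 target gene in every library, in TMM-scaled CPM on a linear axis from 0, by treatment group. Points are the 4 libraries of a group, bars their mean and open triangles the 5 libraries that stand apart. TXNRD1, OSGIN1 and AKR1C1 libraries with bortezomib all lie above those without it, while TXN shows its lowest values in open triangles.

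Bortezomib alone raised TXNRD1, AKR1C1 and OSGIN1 4.81- to 6.62-fold and HMOX1 and AKR1B10 by smaller amounts. In all, 5 of the 8 genes were called higher at an adjusted p under 0.05 (edgeR's quasi-likelihood test, Benjamini-Hochberg over all 12685 genes) and 0 lower. The shares over all genes were 27.6% higher and 25.8% lower. The median log2 fold change was 0.55 for the 8 genes and 0.00 for all genes. In the same 5 genes every bortezomib library lay above every DMSO library, against 50.0% of all genes without overlap between these groups in either direction.

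TXNRD1, the cytosolic thioredoxin reductase that uses NADPH to keep thioredoxin reduced, stood at 98.2, 80.6, 77.7 and 83.2 CPM in the DMSO libraries and at 641, 531, 565 and 515 CPM with bortezomib. The groups were far from overlapping, and the log2 fold change was 2.73 ± 0.17 (SE, adjusted p = 1.55e-15). TXN, the thioredoxin it reduces, was at 205, 244, 235 and 249 CPM in DMSO and at 218, 182, 212 and 263 CPM with bortezomib. Those ranges overlapped almost completely (log2 fold change -0.10 ± 0.37, adjusted p = 0.851). PRDX1, a peroxiredoxin that reduces hydrogen peroxide with electrons from thioredoxin, also overlapped, at 688 to 746 CPM against 674 to 745 CPM (-0.03 ± 0.08, adjusted p = 0.767). Of the 3 thioredoxin genes tested here only the reductase passed, and a difference between its change and those of TXN and PRDX1 was not tested.

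AKR1C1, a hydroxysteroid dehydrogenase that also reduces reactive carbonyls, was at 146, 145, 131 and 126 CPM in DMSO and at 816, 759, 714 and 873 CPM with bortezomib, a log2 fold change of 2.53 ± 0.11 (adjusted p = 1.65e-19). Its near copy AKR1C2 went from 85.1 to 398 CPM (2.22 ± 0.12, adjusted p = 2.07e-16). AKR1B10, which reduces retinal and other aldehydes, was at 86.0, 94.4, 81.6 and 91.4 CPM in DMSO and at 116, 107, 135 and 132 CPM with bortezomib. The AKR1B10 libraries did not overlap, but its call was marginal (0.47 ± 0.20, adjusted p = 0.0413), and it was lost when any single bortezomib or DMSO library was left out (adjusted p = 0.0549 to 0.138). It was also lost with DESeq2 size factors (adjusted p = 0.0561), with upper-quartile factors (0.0909), with mitochondrial genes left out (0.0636) and in the DESeq2 test (0.113). The call held without the 5 libraries that stand apart (0.42, adjusted p = 4.65e-04) and with a term for replicate number (adjusted p = 0.0190). NQO1, the quinone reductase that is often read as a marker of NRF2 activity, stood at 615, 659, 621 and 663 CPM in DMSO and at 623, 646, 671 and 712 CPM with bortezomib. Its ranges overlapped and the change was 0.05 ± 0.08 (adjusted p = 0.590).

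HMOX1, which breaks heme down to biliverdin, iron and carbon monoxide, was at 93.1, 94.8, 65.2 and 77.6 CPM in DMSO and at 160, 128, 106 and 114 CPM with bortezomib. The change of 0.62 ± 0.15 (adjusted p = 7.28e-04) was about 1.54-fold and the groups did not overlap. OSGIN1, an oxidative stress induced regulator of growth, was at 11.04, 10.67, 11.20 and 11.89 CPM in DMSO and at 50.9, 55.1, 52.0 and 57.9 CPM with bortezomib (2.27 ± 0.12, adjusted p = 6.08e-17). Scaled by library totals alone, the counts became 3 higher and 2 lower: HMOX1 and AKR1B10 lost their calls (0.12, adjusted p = 0.502, and -0.03, adjusted p = 0.909) and NQO1 and PRDX1 were called lower (-0.45, adjusted p = 7.79e-06, and -0.53, adjusted p = 2.65e-06). That scaling put the median of all genes at -0.50 and 19.2% of the called genes on the higher side, against 51.6% with TMM, so that NQO1 and PRDX1 lay near the bulk of genes under either. Without the 5 libraries that stand apart, none of which is a bortezomib or DMSO library, the counts were again 5 and 0. That fit called 27.1% of all genes higher and 29.3% lower.

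**Figure D2:**
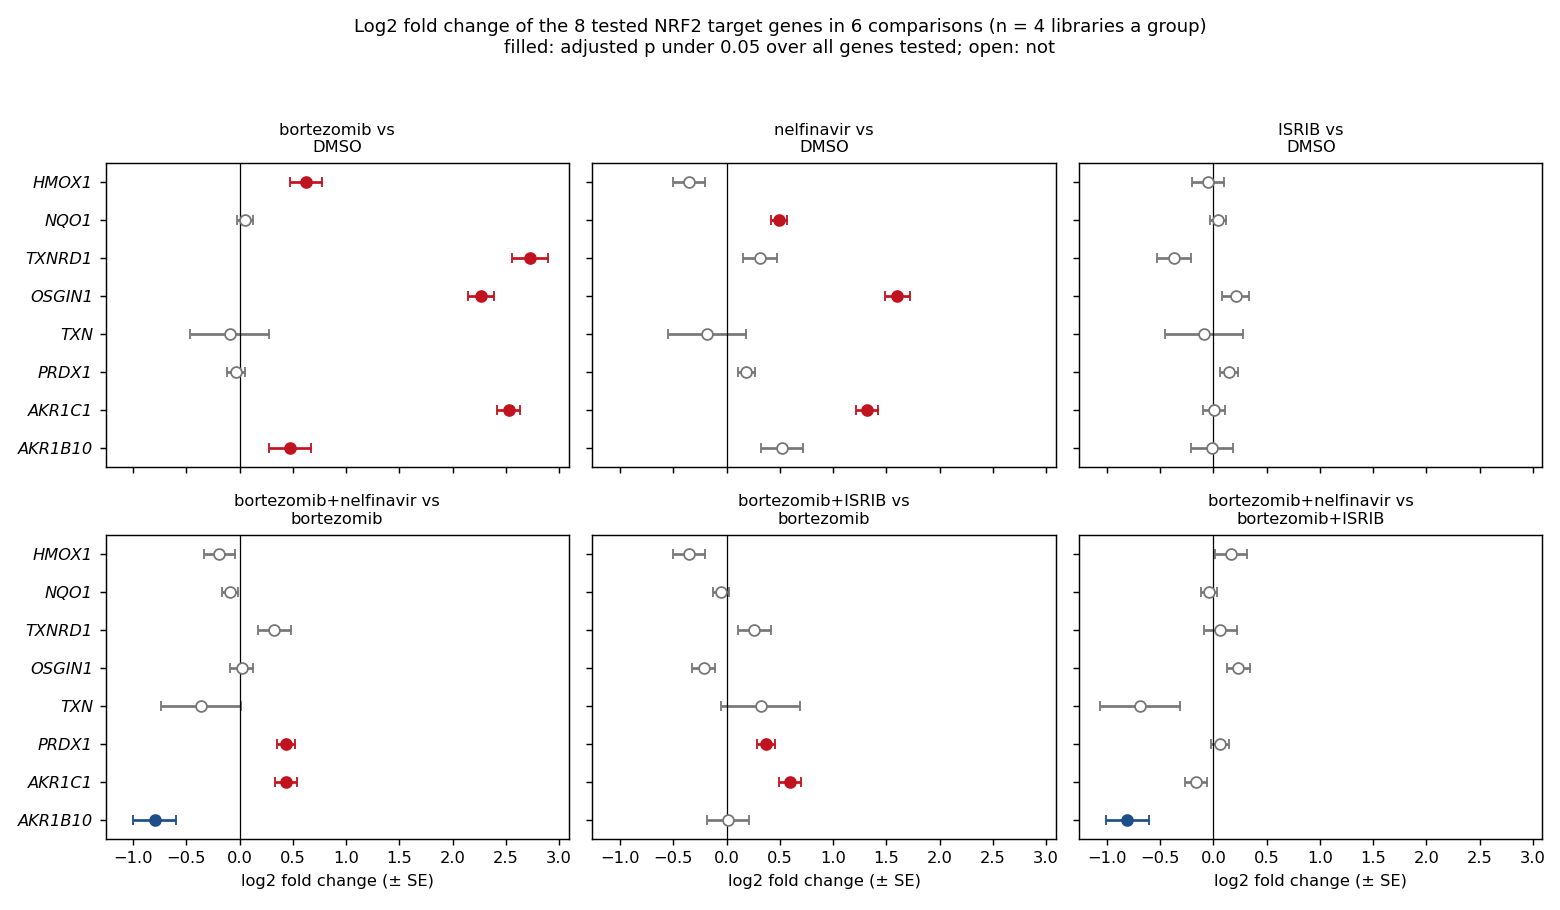
Log2 fold change (x axis, ± SE) of each tested gene in the 6 comparisons between groups of 4 libraries. Filled points passed an adjusted p of 0.05 over all genes tested and open points did not, with red for higher and blue for lower. The panel for bortezomib against DMSO has 5 filled points, the one for nelfinavir 3 and the one for ISRIB 0.

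Nelfinavir alone raised OSGIN1 3.04-fold, AKR1C1 2.49-fold and NQO1 1.4-fold, so that 3 of the 8 genes were higher and 0 lower. Over all genes 10.4% were called higher and 8.84% lower, and the median log2 fold change was 0.40 for the 8 genes and 0.01 for all genes. Between these groups 4 of the 8 genes had no overlap, against 29.6% of all genes. OSGIN1 rose to 37.2, 29.2, 34.4 and 35.7 CPM, each library above every DMSO library (1.60 ± 0.12, adjusted p = 1.58e-12). AKR1C1 rose to 435, 292, 301 and 339 CPM (1.32 ± 0.11, adjusted p = 7.43e-12), and AKR1C2 to 193 CPM (1.18 ± 0.12, adjusted p = 3.72e-09). NQO1 was at 959, 799, 884 and 948 CPM, above every other library of the study (0.49 ± 0.08, adjusted p = 8.79e-06). These 3 calls held under every alternative run.

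AKR1B10 stood at 144, 113, 97.7 and 153 CPM with nelfinavir, all above the DMSO libraries, but narrowly missed the threshold (0.52 ± 0.19, adjusted p = 0.0543). It was called in 7 of the 24 fits that left out a single library, among them the fit without nelfinavir replicate 3 (0.63, adjusted p = 0.0297). TXNRD1 was at 139, 94.3, 81.1 and 109 CPM and overlapped DMSO (0.32 ± 0.16, adjusted p = 0.181). HMOX1 was at 77.5, 69.6, 59.2 and 53.4 CPM, a difference of -0.35 ± 0.15 (adjusted p = 0.107) that passed without DMSO replicate 3 (-0.45, adjusted p = 0.0487). TXN, at 115 to 294 CPM, and PRDX1, at 725 to 875 CPM, overlapped DMSO (adjusted p = 0.804 and 0.122). Without nelfinavir replicate 3 and the other 4 libraries that stand apart, 5 of 8 were higher, TXNRD1 (0.43, adjusted p = 8.12e-04) and AKR1B10 (0.63, adjusted p = 1.29e-05) being added, against 1433 of the 13032 genes of that fit. These 2 genes are below the rest of their group in each library left out, so leaving those out raises them by construction.

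ISRIB alone gave 0 calls among the 8 genes and 0% called higher or lower over all genes. Before adjustment, 703 of all genes and 1 of the 8, TXNRD1, had a p under 0.05 with edgeR (log2 fold change -0.37 ± 0.16, adjusted p = 0.827). The DESeq2 test also called 0 of the 8, against 1 gene higher and 18 lower over all. TXNRD1 stood at 67.1, 69.0, 46.2 and 80.1 CPM with ISRIB, overlapping DMSO, and ISRIB replicate 3, a library that stands apart, was the lowest. OSGIN1 was at 12.99, 13.25, 12.57 and 12.94 CPM, each above the highest DMSO library at 11.9 CPM, yet the change was 0.21 ± 0.13 (adjusted p = 1). Of all genes, 8.01% had no overlap between these groups. The medians were -0.01 for the 8 genes and 0.00 for all.

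Adding nelfinavir to bortezomib raised AKR1C1 and PRDX1, each 1.35-fold over bortezomib alone, and lowered AKR1B10 to 0.576 of it. With 2 of 8 higher and 1 lower, the shares over all genes were 15.6% and 13.4%, and the medians were -0.04 for the 8 genes and -0.02 for all. AKR1C1 was at 1047, 1110, 1099 and 1016 CPM, above every bortezomib library (0.43 ± 0.10, adjusted p = 0.00144). AKR1C2 did not pass the test (0.23 ± 0.12, adjusted p = 0.148). PRDX1 was at 887, 822, 1126 and 954 CPM, again with no overlap (0.44 ± 0.08, adjusted p = 1.52e-04). In all, 3 of the 8 genes had no overlap between these groups, against 21.5% of all genes.

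AKR1B10 fell to 87.9, 101, 47.2 and 47.1 CPM, all below bortezomib alone (-0.80 ± 0.20, adjusted p = 0.00297). Its 2 lowest libraries were those that stand apart, and without the 5 such libraries the difference was -0.36 (adjusted p = 0.0359). TXNRD1 was at 821, 910, 579 and 516 CPM, highest in replicates 1 and 2 and within the bortezomib range in replicates 3 and 4 (0.33 ± 0.15, adjusted p = 0.107). It passed without replicate 3 (0.43, adjusted p = 0.0410), without replicate 4 (0.48, adjusted p = 0.0154) or without bortezomib+ISRIB replicate 3 (0.36, adjusted p = 0.0461). TXN was at 272, 281, 58.7 and 70.2 CPM, so its mean describes neither pair (-0.36 ± 0.38, adjusted p = 0.499). HMOX1 at 103 to 120 CPM, NQO1 at 584 to 662 CPM and OSGIN1 at 49.5 to 60.1 CPM overlapped bortezomib alone (adjusted p = 0.365, 0.372 and 0.923). Without the 5 libraries 4 of 8 were higher, with TXNRD1 (0.63, adjusted p = 5.45e-06) and TXN (0.35, adjusted p = 0.0484) added, and 14.1% of all genes were. The values of TXN and TXNRD1 have little weight, because the libraries left out are the ones low in both.

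Adding ISRIB to bortezomib also raised AKR1C1, 1.51-fold, and PRDX1, 1.29-fold, over bortezomib alone. This was 2 of 8 higher and 0 lower, against 6.91% and 5.34% of all genes, with medians of 0.14 and 0.01. AKR1C1 reached its highest levels of the study, at 1248, 1223, 1151 and 1158 CPM (0.60 ± 0.10, adjusted p = 9.38e-05), while AKR1C2 did not pass (0.13 ± 0.12, adjusted p = 0.536). PRDX1 was at 866, 891, 959 and 912 CPM, above every bortezomib library (0.37 ± 0.08, adjusted p = 0.00236). Both calls held in every alternative. In all, 2 of the 8 genes had no overlap between these groups, against 12.5% of all genes.

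TXNRD1 was at 728, 727, 536 and 710 CPM with bortezomib and ISRIB, 3 libraries above the bortezomib range and replicate 3 within it (0.26 ± 0.15, adjusted p = 0.280). TXN was at 348, 289, 63.6 and 394 CPM, where 3 libraries lay above the highest bortezomib library and replicate 3 far below the lowest (0.32 ± 0.37, adjusted p = 0.632). HMOX1 was at 88.8, 116, 115 and 77.5 CPM (-0.35 ± 0.15, adjusted p = 0.129) and OSGIN1 at 44.08, 44.61, 54.95 and 41.96 CPM (-0.22 ± 0.11, adjusted p = 0.215). NQO1 at 598 to 692 CPM and AKR1B10 at 71.4 to 173 CPM overlapped bortezomib (adjusted p = 0.697 and 0.977). Without the 5 libraries the counts were 4 higher and 1 lower, against 8.26% and 7.47% of all genes, with TXNRD1 (0.35, adjusted p = 0.00506) and TXN (0.64, adjusted p = 7.89e-05) higher and HMOX1 lower (-0.44, adjusted p = 0.0174). The library left out of this group is its lowest in TXN and TXNRD1. Leaving it out raises these 2 genes by construction, so their gained calls have little weight.

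Between the 2 combinations, AKR1B10 was the only gene of the 8 to pass, at 0.571 of its bortezomib+ISRIB level with bortezomib and nelfinavir (-0.81 ± 0.20, adjusted p = 0.00303), although the libraries overlapped. This made 0 higher and 1 lower, against 13.2% and 11.3% of all genes, with medians of 0.01 and -0.02. Without the 5 libraries the AKR1B10 difference was -0.56 (adjusted p = 0.00256). AKR1C1 was lower in all nelfinavir libraries than in all ISRIB libraries but did not pass (-0.16 ± 0.10, adjusted p = 0.253), where 18.3% of all genes had no overlap. OSGIN1 (0.24 ± 0.11, adjusted p = 0.124) passed without bortezomib+ISRIB replicate 3 (0.37, adjusted p = 0.0214) or bortezomib+nelfinavir replicate 1 (0.33, adjusted p = 0.0454), and TXN (-0.69 ± 0.38, adjusted p = 0.186) passed without bortezomib+ISRIB replicate 3 (-0.99, adjusted p = 0.0146). HMOX1, NQO1, TXNRD1 and PRDX1 had adjusted p of 0.473, 0.759, 0.800 and 0.628.

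The effect of nelfinavir on these genes differed with and without bortezomib. In the interaction, which subtracts nelfinavir's effect in DMSO cells from its effect in bortezomib cells on the log2 scale, 0 of 8 genes were higher and 4 lower, against 9.74% and 10.0% of all genes, with medians of -0.38 and -0.02. For OSGIN1 the effect was 1.60 without bortezomib and 0.02 with it, an interaction of -1.59 ± 0.16 (adjusted p = 7.15e-09). For AKR1B10 it was 0.52 and -0.80 (-1.32 ± 0.28, adjusted p = 8.00e-04), and without the 5 libraries the interaction was -0.99 (adjusted p = 2.03e-05). For AKR1C1 it was 1.32 and 0.43 (-0.88 ± 0.15, adjusted p = 2.96e-05), and for NQO1 0.49 and -0.09 (-0.58 ± 0.11, adjusted p = 1.44e-04). These 4 calls held in every alternative. For TXNRD1 it was 0.32 and 0.33, with an interaction of 0.01 ± 0.22 (adjusted p = 0.986). PRDX1 had 0.25 ± 0.12 (adjusted p = 0.138) and passed without bortezomib+nelfinavir replicate 2 (0.37, adjusted p = 0.0280). HMOX1 and TXN had adjusted p of 0.648 and 0.849.

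For ISRIB, 1 of 8 genes had a higher interaction and 0 a lower one, against 2.93% and 1.89% of all genes, with medians of 0.13 and 0.01. AKR1C1 had a change of 0.00 ± 0.10 with ISRIB in DMSO cells and rose with it in bortezomib cells, an interaction of 0.59 ± 0.15 (adjusted p = 0.0119). TXNRD1 had the largest estimate, 0.63 ± 0.22 (adjusted p = 0.0997), and passed without bortezomib+ISRIB replicate 3 (0.73, adjusted p = 0.0340). The other 6 genes ranged from -0.42 for OSGIN1 to 0.41 for TXN, at adjusted p of 0.154 to 0.976. Without the 5 libraries 3 genes were higher, AKR1C1 (0.52, adjusted p = 0.00842), TXNRD1 (0.58, adjusted p = 0.00382) and TXN (0.57, adjusted p = 0.0221), against 4.34% of all genes, where the same limit holds for TXNRD1 and TXN. Scaled by totals, 49.4% of all called interactions were on the higher side, against 60.8% with TMM, and the split for bortezomib+ISRIB against bortezomib went from 56.4% to 40.5%; no call of an NRF2 target changed there.

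**Figure D3:**
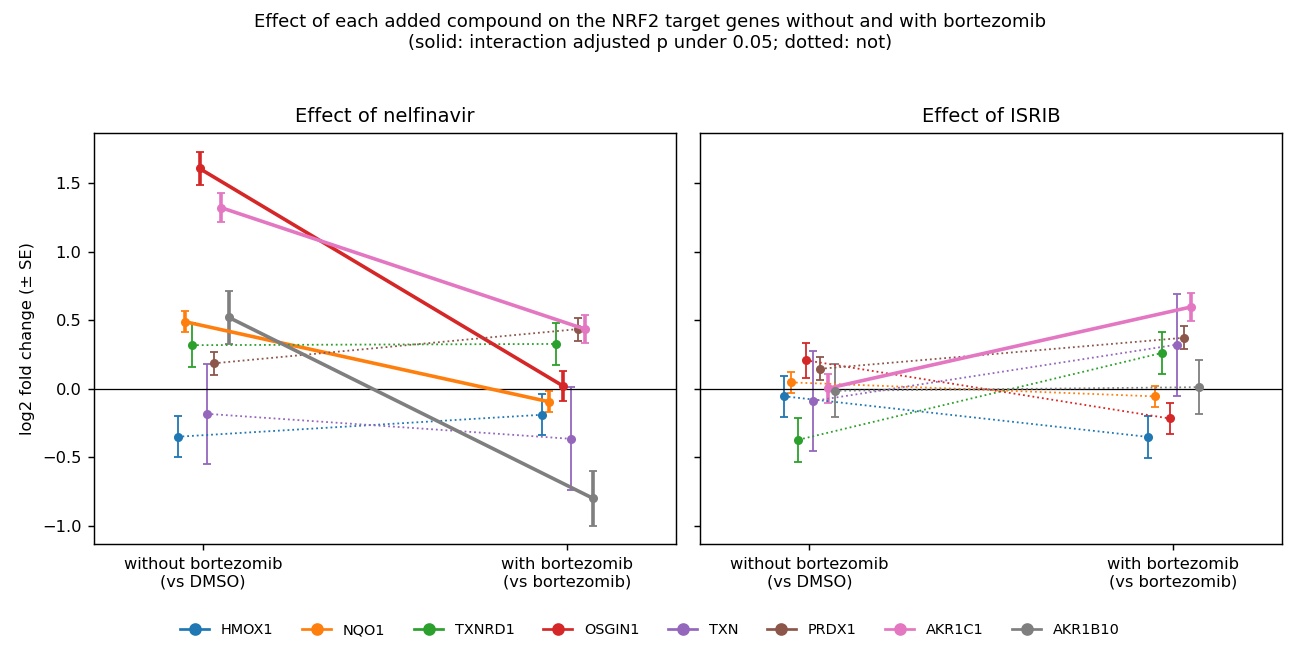
Log2 fold change (y axis, ± SE) on adding nelfinavir (left) or ISRIB (right) to DMSO cells and to bortezomib cells, with a line for each gene. Solid lines have an interaction with an adjusted p under 0.05. With nelfinavir OSGIN1, AKR1C1, NQO1 and AKR1B10 slope downward, and with ISRIB AKR1C1 slopes upward.

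TXN followed the axis that separates the 5 libraries more closely than any of the other 7 genes. Its deviation from the group mean had a correlation of -0.99 with the axis score over the 24 libraries, a description in which both measures come from the same libraries. In the 5 libraries TXN was at 58.7 to 146 CPM, below every remaining library of its own group, with a median difference of -1.97 on the log2 scale. AKR1B10 (r = -0.90, median difference -0.96) and TXNRD1 (r = -0.66, -0.58) were likewise below the rest of their group in all 5. PRDX1, which receives electrons from thioredoxin, was above the rest of its group in all 5 (r = 0.70, 0.16), and OSGIN1 in 3 of them (r = 0.75, 0.24). AKR1C1 (r = -0.11), HMOX1 (r = 0.42) and NQO1 (r = -0.42) were less tied to it. The mitochondrial share was also lowest in the libraries that stand apart within the combinations, at 24.9 and 25.6% against 28.5 and 29.6% with bortezomib and nelfinavir and at 32.6% against 35.4 to 40.2% with bortezomib and ISRIB, while ISRIB replicate 3 (22.7%) and nelfinavir replicate 3 (21.4%) lay within their groups. The part of this difference in the levels was not tested. The highest TXN library was 4.78 times its lowest with bortezomib and nelfinavir and 6.20 times with bortezomib and ISRIB, against 1.21 times in DMSO.

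**Figure D4:**
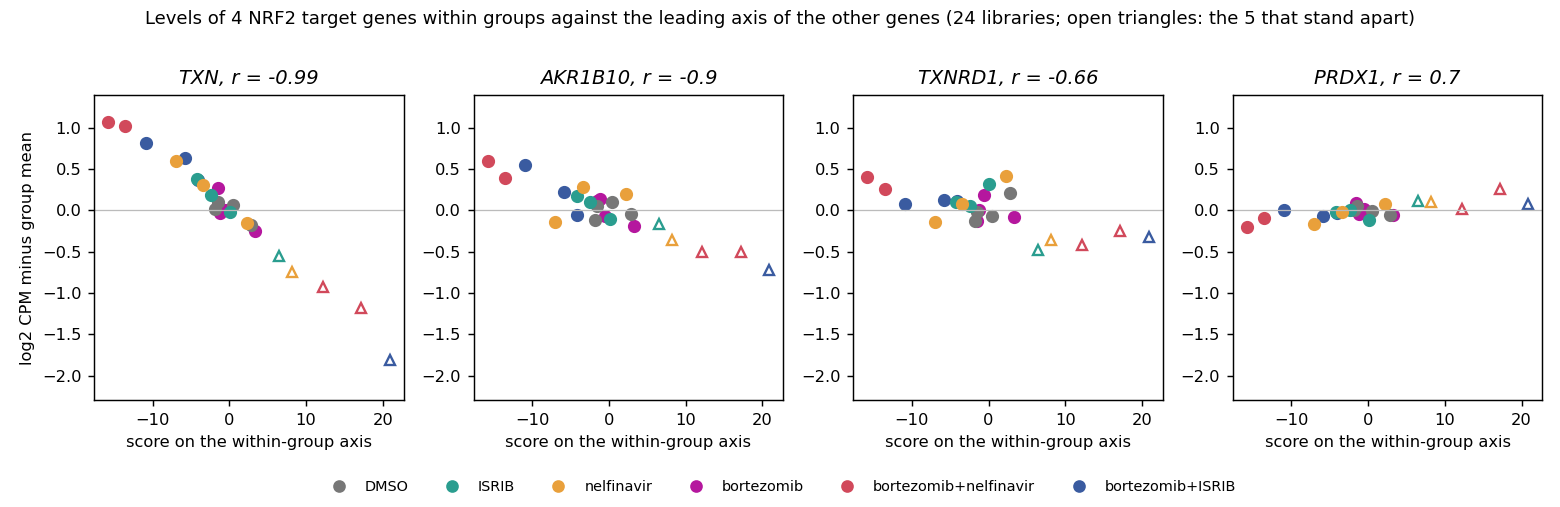
Log2 CPM minus the group mean (y axis) of TXN, AKR1B10, TXNRD1 and PRDX1 against the library's score on the leading within-group axis of other genes (x axis, no unit), for 24 libraries. TXN and AKR1B10 decline along the whole axis (r = -0.99 and -0.90), and the 5 libraries that stand apart, open triangles, lie above the rest of their groups in PRDX1.

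The genes that control NRF2 were examined next, on lists of pathway genes set in the same way as the targets. NFE2L2 itself was at 130 ± 2.83 CPM (SD, n = 4) in DMSO and 155 ± 10.7 CPM with bortezomib (0.26 ± 0.12, adjusted p = 0.0660), and its change did not pass in any of the 6 comparisons between groups. When the 5 libraries that stand apart were left out it passed in 2 of them, with bortezomib (0.21 ± 0.08, adjusted p = 0.0215) and between the combinations (0.34 ± 0.10, adjusted p = 0.0159). KEAP1 passed only between the combinations, at 56.0 CPM with nelfinavir and 39.5 CPM with ISRIB (0.50 ± 0.12, adjusted p = 0.00163). Of 10 regulator genes, 6 were higher and 1 lower with bortezomib, against 27.6% and 25.8% of all genes, with medians of 1.00 and 0.00. SQSTM1, an autophagy receptor that binds KEAP1, went from 217 to 911 CPM (2.07 ± 0.09, adjusted p = 1.04e-18). The small MAF partners MAFK (31.3 to 154 CPM, 2.30 ± 0.12, adjusted p = 3.98e-17) and MAFF (8.84 to 51.9 CPM, 2.55 ± 0.15, adjusted p = 3.23e-16) rose as well. BACH1, the competitor of NRF2, which is named here after its value was seen, went from 8.81 to 21.4 CPM (1.28 ± 0.19, adjusted p = 5.64e-07). The 1 lower gene, RBX1, a partner of CUL3 in the ligase, is also named after its value was seen. It went from 64.04 to 34.7 CPM (-0.883 ± 0.146, adjusted p = 5.01e-06).

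With nelfinavir alone 5 of the 10 regulators were higher and 1 lower, against 10.4% and 8.84% of all genes, led by SQSTM1 (1.02 ± 0.09, adjusted p = 2.27e-10) and MAFG (0.85 ± 0.11, adjusted p = 6.02e-07). Added to bortezomib, nelfinavir raised 3 and lowered 1, against 15.6% and 13.4% of all genes, and the 3 were all small MAF genes: MAFF to 164 CPM (1.66 ± 0.13, adjusted p = 6.15e-12), MAFK to 385 CPM (1.32 ± 0.11, adjusted p = 6.83e-11) and MAFG to 512 CPM (0.94 ± 0.11, adjusted p = 6.15e-08). ISRIB added to bortezomib, which called 6.91% of all genes higher and 5.34% lower, gave MAFK higher (0.41 ± 0.11, adjusted p = 0.0115) and SQSTM1 lower (-0.33 ± 0.09, adjusted p = 0.0129). The nelfinavir interaction was higher for 3 of the 10 regulators, MAFF (0.85 ± 0.20, adjusted p = 0.00199), MAFK (0.67 ± 0.16, adjusted p = 0.00317) and CUL3 (0.54 ± 0.19, adjusted p = 0.0437), and lower for 2, SQSTM1 (-1.31 ± 0.13, adjusted p = 3.67e-09) and NFE2L1 (-0.64 ± 0.14, adjusted p = 8.34e-04), against 9.74% and 10.0% of all genes. Of these CUL3 and MAFK are named after their values were seen. ISRIB alone gave 0 calls among the 10.

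Among glutathione genes, 4 of 10 tested were higher and 4 lower with bortezomib (median 0.07), not far from the 27.6% and 25.8% of all genes. Levels fell from 200 to 116 CPM for GPX2, from 125 to 78.8 CPM for GPX4 and from 12.7 to 5.87 CPM for GSTA4, genes named here after their values were seen. SLC7A11, the cystine importer, went from 32.2 to 432 CPM (3.74 ± 0.11, adjusted p = 1.65e-24), and the glutamate-cysteine ligase subunits GCLM (38.3 to 234 CPM, 2.61 ± 0.14, adjusted p = 5.43e-17) and GCLC (30.7 to 88.6 CPM, 1.53 ± 0.12, adjusted p = 2.06e-12) rose with it. With nelfinavir alone, which called 10.4% of all genes higher, these 3 genes were the ones called, SLC7A11 at 281 CPM (3.12 ± 0.10, adjusted p = 5.61e-22), GCLC (0.94 ± 0.12, adjusted p = 4.19e-07) and GCLM (0.87 ± 0.14, adjusted p = 1.14e-05). SLC7A11 is known as an ATF4 target as well as an NRF2 target. GCLM was moved in opposite directions over bortezomib, up with nelfinavir (0.51 ± 0.13, adjusted p = 0.00287) and down with ISRIB (-0.46 ± 0.13, adjusted p = 0.0141), and the 2 combinations differed by 0.97 ± 0.13 (adjusted p = 7.60e-07).

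**Figure D5:**
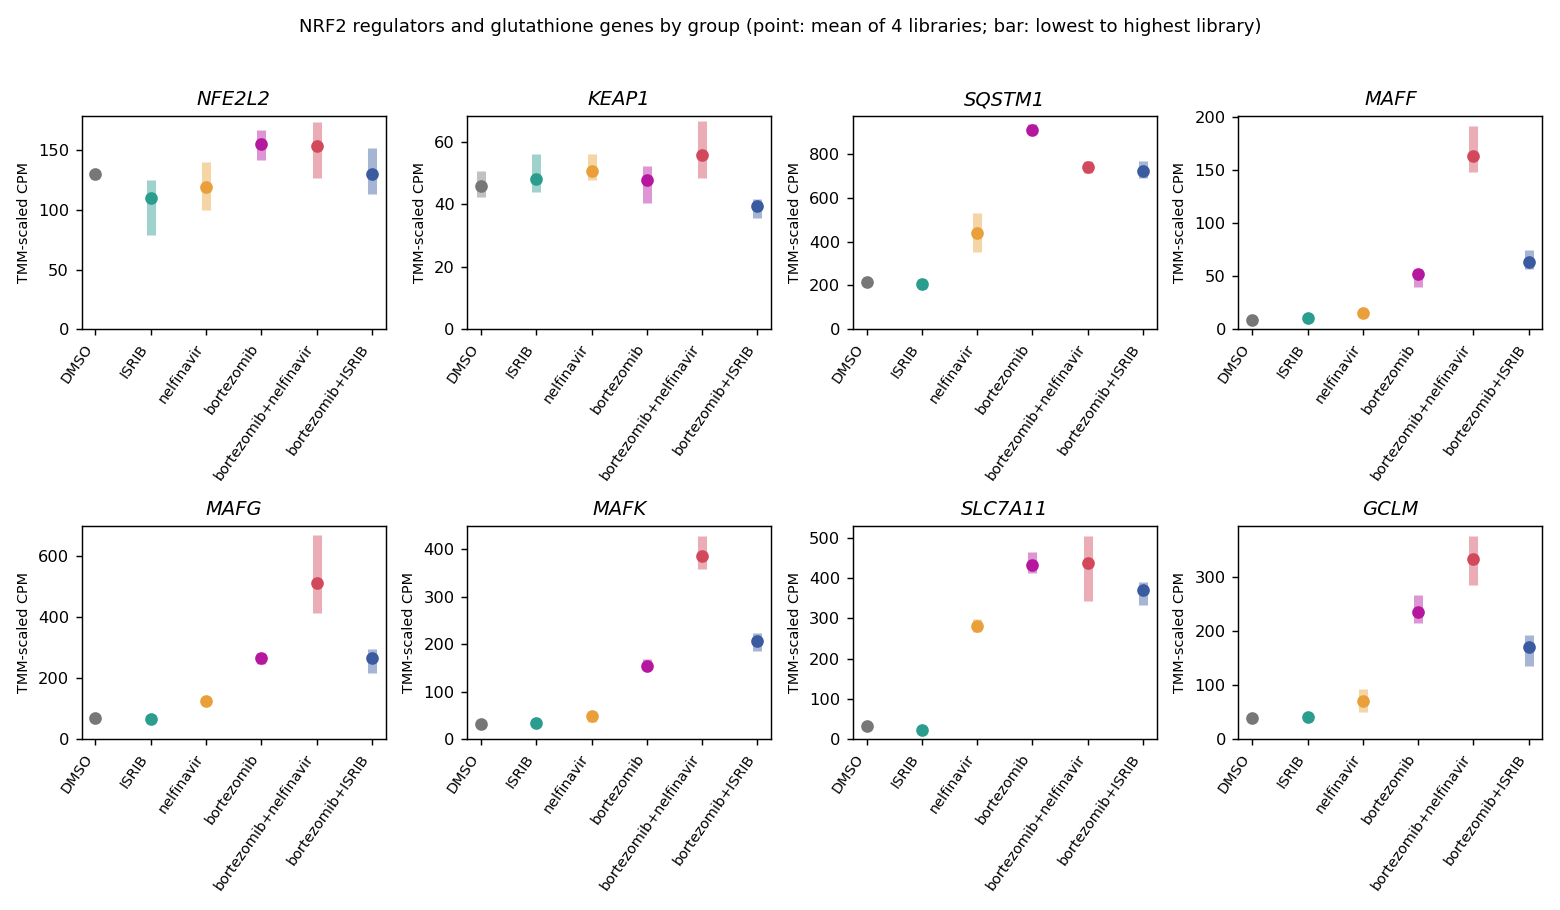
Level of 6 NRF2 regulators and 2 glutathione genes by treatment group, in TMM-scaled CPM on a linear axis from 0; points are means of 4 libraries and bars run from the lowest to the highest library. MAFF, MAFG and MAFK are highest with bortezomib and nelfinavir, and the NFE2L2 means stay between 110 and 155 CPM.

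Of 13 other thioredoxin, peroxiredoxin and glutaredoxin genes, 2 were higher and 6 lower with bortezomib (median -0.25), where 27.6% of all genes were higher and 25.8% lower: PRDX5 (1.11 ± 0.13, adjusted p = 1.08e-08) and GLRX3 (0.87 ± 0.13, adjusted p = 4.78e-07) rose and GLRX5, a mitochondrial glutaredoxin, fell by 1.35 on the log2 scale (adjusted p = 1.01e-13). In the aldo-keto reductase family outside the targets, 2 of 7 tested were higher and 3 lower (median -0.28) beside the same shares of all genes, with AKR1C2 the largest increase. With nelfinavir AKR1C2, AKR1C3 (0.56 ± 0.10, adjusted p = 7.52e-05) and AKR1A1 (0.35 ± 0.09, adjusted p = 0.00372) were higher. Of 5 NADPH genes tested, 3 were higher and 0 lower with bortezomib (median 0.34; 27.6% and 25.8% of all genes), led by TALDO1 of the pentose phosphate pathway (125.6 to 425 CPM, 1.76 ± 0.08, adjusted p = 6.40e-19).

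Of the 8 heme and iron genes beside HMOX1, 5 were higher and 2 lower with bortezomib (median 0.53), against 27.6% and 25.8% of all genes. BLVRB, a biliverdin reductase, went from 22.01 to 80.72 CPM (1.87 ± 0.13, adjusted p = 1.01e-13) and FTL, the ferritin light chain, from 4462 to 7763 CPM (0.80 ± 0.07, adjusted p = 4.12e-11). The 2 lower genes, named here after their values were seen, were the other biliverdin reductase gene BLVRA and the other heme oxygenase gene HMOX2. BLVRA went from 38.8 to 23.7 CPM and HMOX2 from 36.8 to 23 CPM. BLVRB was lower in both combinations than with bortezomib alone, with changes of -0.76 ± 0.13 for nelfinavir (adjusted p = 3.15e-05) and -0.83 ± 0.13 for ISRIB (adjusted p = 2.94e-05). Scaled by library totals alone, the counts with bortezomib became 5 higher and 3 lower for the regulators, 2 and 10 for the thioredoxin list, 1 and 4 for the aldo-keto reductases, 4 and 5 for the glutathione genes, 1 and 1 for the NADPH genes and 2 and 2 for the heme and iron genes. That scaling called 11.7% of all genes higher and 49.4% lower. The counts were 7 and 1, 2 and 7, 2 and 3, 5 and 4, 3 and 1, and 5 and 2 in the same order when the 5 libraries that stand apart were left out of the TMM fit. That fit called 27.1% of all genes higher and 29.3% lower. ISRIB alone gave 0 calls on each of these lists.

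Over the 24 libraries, the tested genes most like AKR1C1 in log2 level were AKR1C2, GDF15 and NR0B2 (r = 0.989, 0.989 and 0.987), those most like OSGIN1 were ULK1, CBS and S100P (r = 0.990 to 0.981) and those most like TXNRD1 included ARID4B and NPC1 (r = 0.984 and 0.981). TXN was most like IFNGR1 (r = 0.953). Among the targets themselves the highest correlations were between TXNRD1 and AKR1C1 (r = 0.96) and between OSGIN1 and AKR1C1 (r = 0.95), while TXN and PRDX1 had -0.53. All of these points share their libraries and the same 6 treatments, so both differences between groups and the split within groups enter the values. An AKR1C1 transcript end is also a near copy of AKR1C2, and the part of exchanged reads in their correlation was not tested. Over the 6 group means in place of the libraries, 1 of the 24 most alike genes, CBS for OSGIN1, was named again.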

How the data were processed

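Gene counts were deposited by the authors as 1 table of raw counts for the 24 libraries, made by 3′ end sequencing. Per the study's methods and processing notes, reads were trimmed with cutadapt 2.8, aligned to hg19 with STAR and counted on Ensembl genes of GRCh37, and only protein-coding, lincRNA and antisense genes were kept. Whether counting used strand, and what became of reads with several matches, was not given in the sources used here. Groups were taken from the sample labels.

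Genes were kept with edgeR's filterByExpr (minimum count 5, minimum total 25), scaled by TMM and fitted over all 6 groups with edgeR 4.0.16 (limma 3.58.1, R 4.3.3) by the quasi-likelihood test, with Benjamini-Hochberg adjustment over all 12685 genes in each of 8 comparisons. A gene was called at an adjusted p under 0.05. Differences are log2 fold changes with SE, and correlations used log2 CPM with a prior count of 2. DESeq2 1.42.0, other scalings and filters, a replicate term and 24 fits without a single library were alternatives. The fit was tested on simulated data. Transcript ends were compared with blastn 2.17.0, and promoters came from RefSeq (GRCh38.p14), searched on both strands.

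The target genes and the pathway lists were chosen with earlier results of these data known. All 9 target genes are named, and from each pathway list up to 3 tested genes with the smallest p in a comparison, with NFE2L2, KEAP1 and AKR1C2 always; the 3 genes most correlated with each target are its most alike genes. Some genes that these rules name are not reported here. The 5 libraries that stand apart were defined after the data were seen. No 2 libraries of a group agreed within sampling noise (lowest chi-square per degree of freedom 2.20). Same-numbered libraries were not shown to pair: 21 of 60 such pairs and 38 of 180 others had correlated deviations above 0.1. In the ISRIB group these numbers do not follow the library numbers in the labels.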

Additional observations from a re-analysis of the deposited data

Results flagged for a closer look

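In bortezomib+ISRIB replicate 3, TXNRD1 was at 536 CPM against 710 to 728 CPM in the other 3 libraries, and TXN was at 63.6 CPM against 289 to 394 CPM. Both gaps exceeded Dixon's 95% critical value for 4 samples. Of 48 groups of 4 libraries tested, these 2 exceeded it, and chance alone passes it in about 1 group in 20. This library had the highest score on the leading within-group axis, 20.89.

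The effect of nelfinavir differed between DMSO cells and bortezomib cells, by edgeR's test of the interaction, for OSGIN1 (-1.586 on the log2 scale), AKR1B10 (-1.317), AKR1C1 (-0.885) and NQO1 (-0.583). The effect of ISRIB differed for AKR1C1 (0.594). For AKR1C1 the interactions of the 2 compounds had opposite signs, while its level over bortezomib alone was higher in both combinations; the 2 interactions share the DMSO and bortezomib libraries.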

How the results depend on the processing

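Of the calls of single target genes, those of TXNRD1, OSGIN1 and AKR1C1 with bortezomib, of OSGIN1, AKR1C1 and NQO1 with nelfinavir, of all 5 gene and combination pairs called against bortezomib, of AKR1B10 between the combinations and of the 5 interactions held in every alternative run. With library totals alone, bortezomib against DMSO gave 3 higher and 2 lower (11.7% and 49.4% of all genes), with NQO1 at -0.45 and AKR1B10 at -0.028 turning sign. This scaling moved the median of all genes to -0.50. With no filter on low counts, nelfinavir against DMSO gave 5 higher and 1 lower, against 6.22% and 6.26% of all genes. In the same run bortezomib+nelfinavir against bortezomib gave 2 lower (7.75% of all genes) and bortezomib+ISRIB against bortezomib 1 lower (3.44%). The 2 combinations gave 2 lower (6.60%) and the ISRIB interaction 2 higher (2.19%). That run also called TXNRD1 higher with bortezomib+nelfinavir (0.365, adjusted p = 0.00145) and TXN higher with bortezomib+ISRIB (0.317, adjusted p = 0.0252). TXN was called lower in it with bortezomib+nelfinavir (-0.338, adjusted p = 0.00692) and between the combinations (-0.655, adjusted p = 5.33e-09). Target counts that moved by at most 1.5 times are not listed here, among them those where only AKR1B10 lost its call with bortezomib. With only the groups compared in the fit, nelfinavir gave 5 higher and 1 lower (15.9% and 16.1% of all genes) and the ISRIB interaction 2 higher (3.39%). The cause of these changes was not tested. With the replicate block the ISRIB interaction gave 2 higher (3.26% of all genes), TXNRD1 being added (adjusted p = 0.0319), and AKR1B10 passed with nelfinavir (adjusted p = 0.0327). The replicate numbers are not shown to pair the libraries. Leaving out single libraries gave 0 to 1 lower with nelfinavir, 0 to 1 higher and 1 to 2 lower between the combinations, 0 to 1 higher for the nelfinavir interaction and 1 to 2 higher for the ISRIB interaction. Without the 5 libraries that stand apart, an alternative chosen after seeing the data, the counts were 5 higher with nelfinavir, 4 higher with bortezomib+nelfinavir, 4 higher and 1 lower with bortezomib+ISRIB and 3 higher for the ISRIB interaction, and TXN with bortezomib+nelfinavir turned from -0.36 to 0.35. Among the pathway lists, counts moved by over 1.5 times 75 times under the other planned settings, 188 times in fits without a single library and 26 times without the 5. Uncalled values changed sign in 71 cases. SRXN1 had 3 counts in all and was in no test.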

Other observations

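Other detoxification genes were examined beside the targets, with the same fit. Of 11 tested, 4 were higher and 1 lower with bortezomib (median 0.18), against 27.6% and 25.8% of all genes. ABCC2, an efflux pump for conjugates, went from 142.5 to 432 CPM (1.60 ± 0.09, adjusted p = 6.28e-16). UGDH, which makes UDP-glucuronate, went from 305 to 417 CPM (0.45 ± 0.08, adjusted p = 8.60e-06) and is named for its small p. Of the 4 higher genes, 2 rose over 2-fold, and UGDH was not among these. With nelfinavir alone 4 were higher and 0 lower, against 10.4% and 8.84%. Over bortezomib, nelfinavir raised 1 and lowered 4 (15.6% and 13.4% of all genes), among them ABCC3 (-0.83 ± 0.11, adjusted p = 6.21e-07), ABCC2 (-0.60 ± 0.09, adjusted p = 5.59e-06) and ALDH3A1 (-1.03 ± 0.17, adjusted p = 2.52e-05), and ISRIB raised 1 and lowered 3 (6.91% and 5.34%). The nelfinavir interaction was lower for 4 and higher for 0, against 10.0% and 9.74%.

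Of 5 antioxidant enzymes that are not usually counted as NRF2 targets, 2 were higher and 1 lower with bortezomib, against the same 27.6% and 25.8%. SOD1, the cytosolic superoxide dismutase, went from 319 to 754 CPM (1.24 ± 0.07, adjusted p = 7.46e-17), SOD2, the mitochondrial one, from 95.3 to 151 CPM (0.67 ± 0.13, adjusted p = 5.02e-05), and catalase (CAT) fell from 85.3 to 50.0 CPM (-0.77 ± 0.13, adjusted p = 6.63e-06). Added to bortezomib, nelfinavir gave 0 higher and 3 lower of the 5, against 15.6% and 13.4% of all genes, and lowered SOD2 to 82.2 CPM (-0.88 ± 0.13, adjusted p = 4.65e-06). ISRIB added to bortezomib gave 0 higher and 1 lower (6.91% and 5.34%). SOD2 stood at 184 CPM there and was not called higher, its libraries at 129 to 235 CPM overlapping the 139 to 162 CPM of bortezomib alone. Scaled by library totals alone, bortezomib gave 2 higher and 3 lower on the detoxification list and 1 higher and 2 lower among the antioxidant enzymes. That scaling called 11.7% of all genes higher and 49.4% lower. ISRIB alone gave 0 calls on both lists.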
